A study of Rattus norvegicus with 6 samples.

Results

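The aquaporins of the rat kidney inner medulla (IM) were followed through 10 genes, Aqp1 to Aqp9 and Aqp11. They were taken by name: a feature counted as a member when its name was that gene symbol alone. Each of the 10 was found as 1 feature among the 27321 features measured, of which 24074 carry a single gene name. Another 6 features, lying between genes, name Aqp2 or Aqp3 as a neighbour, held at most 2 reads in any library and were not added.

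The libraries were made from the IM tip, where the medulla ends in the papilla, of male Sprague-Dawley rats aged 3 months. Vehicle was given through the tail vein to 3 control rats, and streptozotocin (STZ), which destroys the insulin-producing cells of the pancreas, to 3 STZ rats at 62.5 mg/kg. Both groups were killed 15 days later, and blood glucose had been measured the day after the injection to establish diabetes. The study asked which genes of glycan processing differ between diabetic and control IM, and the same libraries measured the aquaporins. Throughout, values of single libraries are given in the order of replicates 1, 2 and 3. The control libraries held 4657450, 5575171 and 3412311 reads on features, and the STZ libraries 5014659, 4475648 and 3963074. The values are normalized counts, that is, reads divided by 1 size factor per library, and a single read was worth between 0.763 and 1.11 of them. Every control library came from sequencing lane 3, whereas lanes 7, 6 and 8 held the STZ libraries. In any comparison of the groups, the lane and the treatment thus cannot be told apart.

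Aquaporins are membrane channels that let water, and in the case of the aquaglyceroporins also glycerol, follow its gradient across a cell. In the collecting duct, vasopressin moves AQP2 from vesicles into the apical membrane of principal cells, and the water that enters leaves through AQP3 and AQP4 in the basolateral membrane. AQP1 serves the proximal tubule, the thin descending limb and the descending vasa recta, while the other members are known mainly from intracellular membranes or from other organs.

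Markers of the labelled tissue and of other segments were read before the aquaporins were compared. Of 7 principal cell genes, 6 could be read, and the most abundant of them, Fxyd4, a regulator of the sodium pump, had between 21951 normalized counts in control replicate 3 and 46287 in STZ replicate 1. The thin limb gene Cldn10, which encodes a claudin of tight junctions, had a mean of 1560.3 normalized counts in control rats, and Sptssb and Corin were not analysed here. Thick ascending limb genes summed to 1099, 1371 and 1886 normalized counts in control and 597, 364 and 210 in STZ libraries. Proximal tubule genes summed to 268, 363 and 518 in control and 166, 114 and 168 in STZ libraries. How closely the dissection kept to the IM tip was not tested.

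By reads, Aqp3, Aqp4 and Aqp2 stood far above the other aquaporins. Among the single-gene features Aqp3 ranked 45, Aqp4 98 and Aqp2 178 by the control mean, and 17, 91 and 85 by the STZ mean. Within single libraries Aqp3 ranked between 38 and 73 in control and between 13 and 38 in STZ rats, and Aqp2 between 130 and 237 in control and between 58 and 123 in STZ rats. Aqp1 came next, at rank 4612 in control and 5545 in STZ rats. These are ranks of reads, which also grow with the length of a transcript, and transcript lengths were not used here.

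In the order of reads in control rats, Aqp3 was above Aqp4 in all 3 libraries although their ranges overlapped, while the values of Aqp4 lay wholly above those of Aqp2, and those of Aqp2 above those of Aqp1. In STZ rats Aqp3 was wholly above Aqp2, but Aqp2 and Aqp4 overlapped and Aqp2 was the higher in only 1 of 3 libraries. Divided by the length of the locus on rn4, introns included, the control means were 1467 normalized counts per kilobase for Aqp3, 572 for Aqp2 and 24.0 for Aqp4. The deposited Aqp4 locus is 193188 bases long, against 5521 for Aqp3 and 5038 for Aqp2, so the place of Aqp4 depends on the scale. In RefSeq on the GRCr8 build the Aqp4 locus has 16646 bases, and reads of other transcripts inside the deposited locus cannot be separated from those of Aqp4. The deposited locus also overlaps the feature F1LVD9_RAT, which had at most 3.05 normalized counts in any library.

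The 10 aquaporins together took 0.393%, 0.417% and 0.284% of the reads of the control libraries, and 0.758%, 0.412% and 0.585% of those of the STZ libraries. STZ replicates 1 and 3 were above all control libraries, and STZ replicate 2 lay within the control range. Of the summed normalized counts of the family, Aqp3 made up 50.3% ± 5.89 (SD, n = 3) in control libraries and 58.6% ± 4.83 (SD, n = 3) in STZ libraries. Aqp2 made up 18.5% ± 2.84 and 20.4% ± 0.951, and Aqp4 30.1% ± 5.89 and 20.5% ± 4.60. For each of these 3 genes the shares in single libraries overlapped between the groups.

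**Figure D1:**
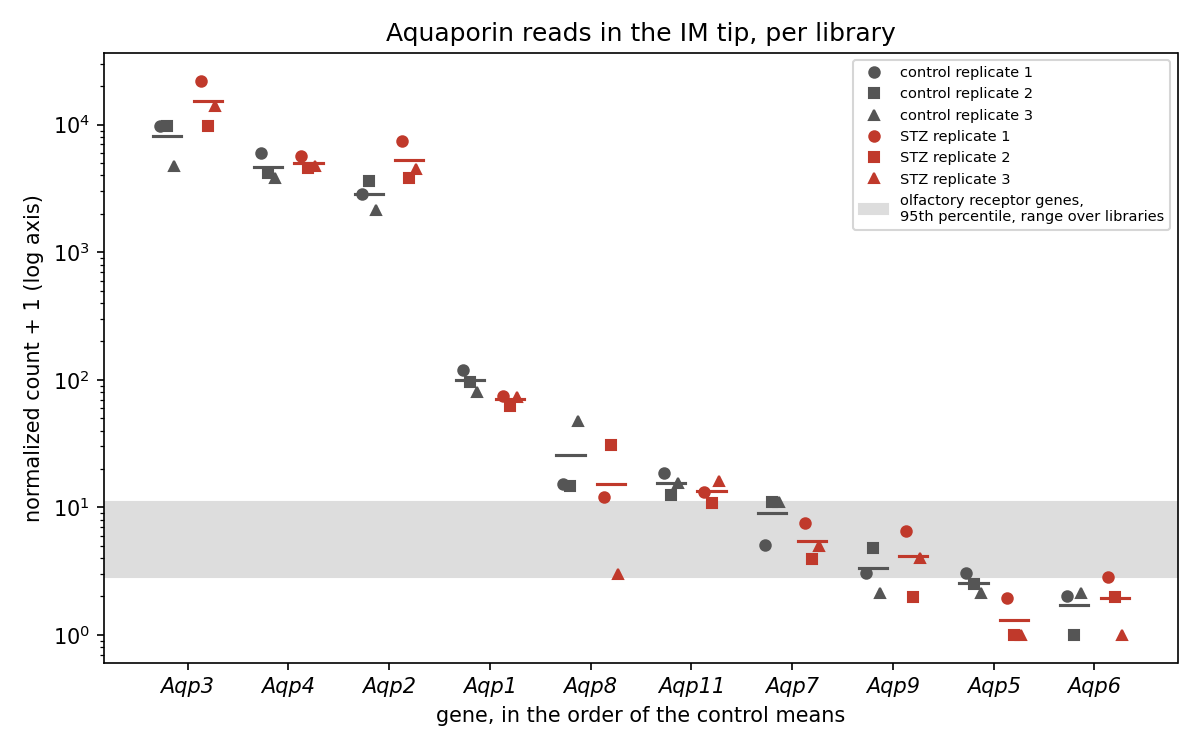
Normalized count plus 1 (log axis) of the 10 aquaporins, 1 point per library with the mean of each group as a bar; the grey band spans the 95th percentile of olfactory receptor genes over the 6 libraries. Aqp3, Aqp4 and Aqp2 lie between 2137 and 22114 normalized counts, Aqp1 between 61.3 and 119, and the other 6 at or below 46.7.

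To see which aquaporins differed in diabetic rats, the groups were compared with limma on log2(normalized count + 1), over 13486 features whose normalized counts averaged 5 or more in the 6 libraries. Of the 10 aquaporins, 7 reached that mean and Aqp5, Aqp6 and Aqp9 did not. At an adjusted p under 0.05 (Benjamini-Hochberg procedure over all features tested) limma called 0 of the 7, against 2.1% of all features tested (0.927% lower and 1.17% higher with STZ). Before adjustment 2 of them, Aqp2 and Aqp3, had a p under 0.05, as had 14.7% of all features tested. On the recovered reads, edgeR called 0 of 7 and had 3 at an unadjusted p under 0.05 (15% of all features), and DESeq2, which gave an adjusted p to 4 of the 7, called Aqp2 alone and had 2 at an unadjusted p under 0.05 (13.1% of all features). By DESeq2, 3.62% of the features given an adjusted p were called higher in STZ rats. The groups did not overlap for 2 of the 7 aquaporins, with Aqp2 above and Aqp1 below control, against 20.3% of all features tested.

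Aqp2, the vasopressin-regulated channel of the apical membrane, lies on chromosome 7 of rn4 from 138325854 to 138330891. Control libraries held 2865, 3641 and 2137 normalized counts of it, and STZ libraries 7413, 3824 and 4501. The groups did not overlap, but STZ replicate 2 was only slightly above control replicate 2, and STZ replicate 1 was far above all others. Group means ± SD were 2881 ± 752 in control and 5246 ± 1907 in STZ libraries (n = 3 each). The log2 fold change of Aqp2, STZ over control, was 0.84 (SE 0.29, 95% confidence interval 0.21 to 1.47), with an adjusted p of 0.18 by limma. The exact permutation p was 0.1 (two-sided), and no smaller one is possible with 3 rats in each group. With DESeq2 the log2 fold change was 0.86 and the adjusted p 0.0281, while over the 18 alternatives run for Aqp2 the adjusted p ran from 0.0281 to 0.455 and was under 0.05 in 1. The sign was the same in all 18, and without STZ replicate 1 the log2 fold change was 0.56. In bulk tissue, fewer cells of a type and less RNA per cell cannot be told apart, nor can more cells and more RNA per cell.

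Aqp3, the basolateral channel for water and glycerol, lies on chromosome 5 from 58501641 to 58507161. Its normalized counts were 9786, 9784 and 4728 in control libraries, and 22114, 9711 and 13926 in STZ libraries. STZ replicate 2 was just below control replicates 1 and 2, so the groups overlapped, while STZ replicates 1 and 3 exceeded every control library. The log2 fold change of Aqp3 was 0.91 (SE 0.36, 95% confidence interval 0.11 to 1.71), with an adjusted p of 0.263 by limma and 0.0538 by DESeq2. Over its 18 alternatives the adjusted p ran from 0.0538 to 0.554 and the sign was the same. The value moved by more than 1.5 times when single libraries were left out, to 0.60 without STZ replicate 1 and to 0.56 without control replicate 3.

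Aqp4, the other basolateral water channel of principal cells, lies on chromosome 18 from 6449579 to 6642766. In control libraries Aqp4 reached 5959, 4188 and 3787 normalized counts, compared with 5633, 4586 and 4737 in STZ libraries. The groups overlapped, and the highest value was that of control replicate 1. Its log2 fold change was 0.12 (SE 0.23, 95% confidence interval −0.38 to 0.63), with an adjusted p of 0.897 by limma. Without control replicate 3 the sign turned, at −0.0090. The interval of Aqp4 overlaps those of Aqp2 and Aqp3.

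Principal cell genes were read in the same libraries. Their summed level was 36278, 30633 and 22373 normalized counts in control libraries and 46851, 24834 and 40206 in STZ libraries, nearly all of it Fxyd4. Like Aqp2 and Aqp3, the sum was highest in STZ replicate 1, lowest in control replicate 3, and lowest among the STZ libraries in replicate 2. Of 6 principal cell genes tested, limma and edgeR called 0, with 3 at an unadjusted p under 0.05 by each, and DESeq2 called Scnn1g. Over all features, 14.7% by limma and 15% by edgeR had such an unadjusted p. The groups did not overlap for 20.3% of all features tested. The 2 epithelial sodium channel subunits Scnn1b and Scnn1g lay above control without overlap, with log2 fold changes of 0.79 and 0.93 (adjusted p = 0.235 and 0.12 by limma), and Hsd11b2, which inactivates glucocorticoids, lay below with −0.83 (adjusted p = 0.228). The part of cell makeup in the values of Aqp2, Aqp3 and Aqp4 was not tested.

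Aqp1, the channel of thin descending limbs, descending vasa recta and red cells, lies on chromosome 4 from 84098345 to 84110524. The control libraries held 119, 95.3 and 79.0 normalized counts of Aqp1, and the STZ libraries 74.3, 61.3 and 72.3. The 3 STZ values lay below the 3 control values, the nearest pair being control replicate 3 and STZ replicate 1. Group means ± SD were 97.8 ± 20.1 and 69.3 ± 6.98 (n = 3 each), and the log2 fold change of Aqp1 was −0.48 (SE 0.22, 95% confidence interval −0.97 to 0.02). Its adjusted p was 0.363 by limma, and over 18 alternatives it ran from 0.199 to 0.707 with the same sign.

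Markers of endothelium, red cells, thin limbs and proximal tubule were read beside Aqp1. Of 7 endothelial genes tested, limma called 2 lower, Emcn and Plvap, known from capillary and fenestrated endothelium, and 1 higher, Vwf, the gene of von Willebrand factor. Over all features tested, limma called 0.927% lower and 1.17% higher. With single libraries left out, Emcn passed in each of the 6 fits. Plvap passed only without control replicate 3, and Vwf only without control replicate 3 or STZ replicate 1, with log2 fold changes over the 6 fits from −1.10 to −0.89 and from 1.61 to 2.36. Without the intensity trend Emcn, Plvap and Vwf did not pass (adjusted p = 0.0789, 0.165 and 0.171), and with equal library totals Vwf did not (adjusted p = 0.056). Without overlap, 4 of the 7 genes lay below control and 2, Slc14a1 and Vwf, above, beside 20.3% of all features tested in either direction. Those below include Cdh5 and Tek, not called by limma (log2 fold changes −0.56 and −0.61, adjusted p = 0.163 and 0.156). Slc14a1, the urea transporter gene of the descending vasa recta, had a log2 fold change of 0.74 (adjusted p = 0.134 by limma), the direction opposite to that of Emcn, Plvap and the sum. DESeq2 called Slc14a1, as did limma with quantile normalization. The summed level of the endothelial list, which is not limited to the descending vasa recta, was 9390, 7265 and 7710 normalized counts in control and 4570, 4549 and 4193 in STZ libraries, with Emcn the most abundant. Of 5 erythrocyte genes limma, edgeR and DESeq2 called 0, with 1, 2 and 2 at an unadjusted p under 0.05. Over all features, 14.7%, 15% and 13.1% had such an unadjusted p. The erythrocyte sum, led by Hbb, was 6892, 3210 and 3498 in control and 1557, 2830 and 3792 in STZ libraries. The thin limb gene Cldn10 had 1812.5, 1309 and 1559 normalized counts in control and 2199.7, 2029.6 and 1388 in STZ libraries, with a log2 fold change of 0.25 and an adjusted p of 0.712 by limma. Of 7 proximal tubule genes, limma called Kap lower (adjusted p = 0.0539 without control replicate 2 and 0.143 without the intensity trend), and the sum of the list, led by Kap in the control and by Miox in the STZ mean, was 268, 363 and 518 in control and 166, 114 and 168 in STZ libraries. Their part in the value of Aqp1 was not tested.

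**Figure D2:**
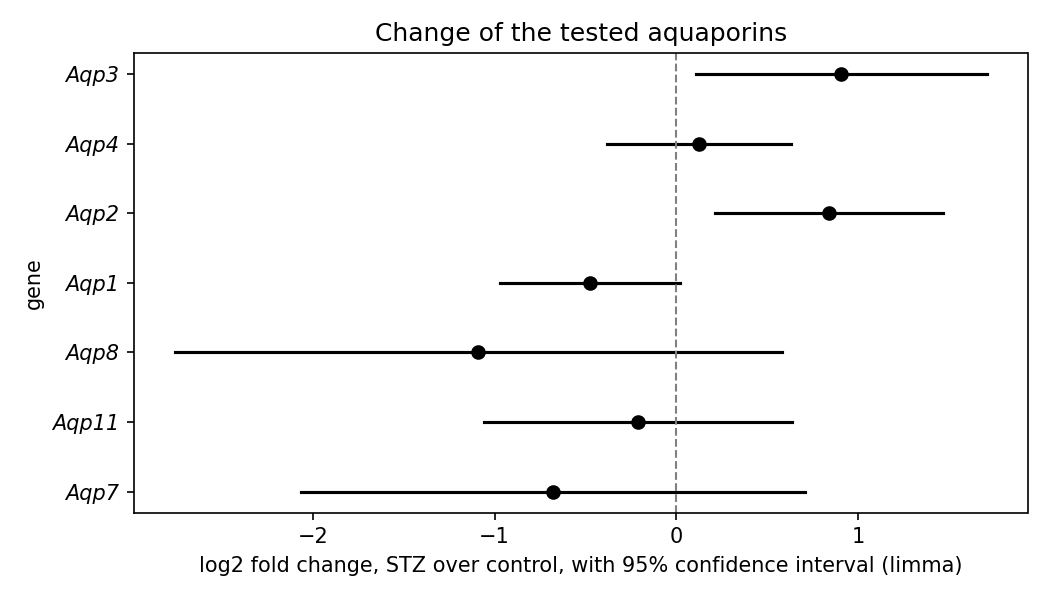
Log2 fold change, STZ over control, of the 7 aquaporins tested, with the 95% confidence interval by limma, not adjusted for the number of features. The intervals of Aqp2 (0.21 to 1.47) and Aqp3 (0.11 to 1.71) lie above 0 and those of the other 5 include it.

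Low aquaporins were set against the 95th percentile of 835 olfactory receptor genes, a background of 2.05, 6.33 and 10.02 normalized counts in control and of 1.86, 5.93 and 9.03 in STZ libraries. It is not adjusted for gene length. The floor was set at 3 reads per library.

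Aqp11, a channel of the endoplasmic reticulum known from the proximal tubule, was above both marks in all 6 libraries. It had 17.4, 11.4 and 14.5 normalized counts in control and 12.1, 9.89 and 15.1 in STZ libraries. Values of both groups overlapped, and limma gave a log2 fold change of −0.21 (SE 0.38) with an adjusted p of 0.895. The value was −0.075 without control replicate 1 and −0.074 without STZ replicate 2, against −0.36 without control replicate 2 and −0.35 without STZ replicate 3.

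Aqp8, known from colon, liver and pancreas, varied widely within both groups, with 14.4, 13.7 and 46.7 normalized counts in control and 11.1, 29.7 and 2.01 in STZ libraries. A single library set the highest value in each group, and STZ replicate 3, with 2 reads, was below both marks. The log2 fold change of Aqp8 was −1.09 (SE 0.76, adjusted p = 0.584 by limma), −0.20 without STZ replicate 3, −0.53 without control replicate 3 and −1.87 without STZ replicate 2.

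Aqp7, an aquaglyceroporin of adipocytes and the proximal tubule, had 4.10, 9.92 and 10.02 normalized counts in control and 6.50, 2.97 and 4.02 in STZ libraries. It exceeded the olfactory background in 3 of 6 libraries, and the groups overlapped. Limma gave Aqp7 a log2 fold change of −0.68 with an SE of 0.63 and an adjusted p of 0.721, and it was −1.05 without control replicate 1 and −0.43 with a pseudocount of 5. Among adipocyte genes limma, edgeR and DESeq2 called 0 of 3 tested, with 0 at an unadjusted p under 0.05 by each. Over all features, 14.7%, 15% and 13.1% had such an unadjusted p. Lep was at 0 in all 6 libraries. The adipocyte sum, nearly all Fabp4, was 1061, 558 and 411 in control and 615, 469 and 486 in STZ libraries.

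Aqp9, the aquaglyceroporin of hepatocytes, had between 0.989 and 5.57 normalized counts and was above 3 reads in 2 of 6 libraries. Aqp5, the channel of salivary and other exocrine glands, had at most 2 reads in any library, and so had Aqp6, which is known from vesicles of intercalated cells. For Aqp5 and Aqp6 a difference between the groups was not detectable at this depth, and no fold change is given. Limma called 5 of 8 intercalated cell genes lower, Atp6v1b1, Atp6v0d2, Atp6v1g3, Slc4a1 and Rhcg, against 0.927% of all features tested. With single libraries left out, Atp6v1b1 passed in each of the 6 fits, and Atp6v0d2 and Atp6v1g3 in all but that without STZ replicate 2 (adjusted p = 0.055 and 0.0693). Rhcg passed only without control replicate 3 or STZ replicate 1, and Slc4a1 in none, with adjusted p-values from 0.0533 to 0.107. None of the 5 passed by limma without the intensity trend, with adjusted p-values from 0.086 to 0.169. Without overlap, 7 of the 8 intercalated cell genes lay below control and 1 above, beside 20.3% of all features tested in either direction. Those below include Foxi1 and Slc4a9, not called by limma (log2 fold changes −1.03 and −0.67, adjusted p = 0.201 and 0.375). Rhbg, an ammonia transporter gene, was the 1 above, with means of 827 normalized counts in control and 1393 in STZ libraries (log2 fold change 0.74, adjusted p = 0.107 by limma). DESeq2 called Rhbg, as did limma with equal library totals and with quantile normalization. The sum of that list, led by Atp6v1g3 in the control and by Rhbg in the STZ mean, was 3863, 2104 and 2330 normalized counts in control and 2228, 2080 and 1644 in STZ libraries. Aqp12a, which is not among the 10, had at most 1 read in any library.

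Neighbouring aquaporin genes had very different reads. On chromosome 7 of rn4, Aqp2, Aqp5 and Aqp6 lie side by side, with 6826 bases between Aqp2 and Aqp5 and 6004 between Aqp5 and Aqp6. In control rats Aqp2 had a mean of 2881 normalized counts, Aqp5 1.56 and Aqp6 0.713, all 3 loci being between 2939 and 5038 bases long. On chromosome 5, Aqp7 lies 53787 bases from Aqp3, with control means of 8.01 and 8099.5 normalized counts. The next single-gene features beyond the cluster on chromosome 7 are Faim2 and Racgap1.

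The promoters of the 3 side by side genes, and that of Aqp3, whose values followed those of Aqp2, are shown beside these reads. RefSeq on the GRCr8 build held promoters of 9 of the 10 aquaporins. The 100 bases before the start of each gene are given, with capitals marking TATAA, the core of a TATA box, on either strand.
Aqp2, chr7:132590186-132590285, plus strand: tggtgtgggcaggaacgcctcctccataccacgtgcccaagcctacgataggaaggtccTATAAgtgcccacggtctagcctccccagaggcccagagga
Aqp5, chr7:132601428-132601527, plus strand: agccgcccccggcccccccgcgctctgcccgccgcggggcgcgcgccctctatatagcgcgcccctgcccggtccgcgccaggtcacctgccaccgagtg
Aqp6, chr7:132610969-132611068, plus strand: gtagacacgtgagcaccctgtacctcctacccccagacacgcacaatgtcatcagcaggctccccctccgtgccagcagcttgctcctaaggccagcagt
Aqp3, chr5:61040684-61040783, minus strand: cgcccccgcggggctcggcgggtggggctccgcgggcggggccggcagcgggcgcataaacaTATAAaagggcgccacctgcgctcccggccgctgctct
TATAA was present in Aqp2 at −41 and in Aqp3 at −38, counted to its first base from the start of the gene. It was absent from these 100 bases of Aqp5 and Aqp6, although the Aqp5 window holds the similar letters tatata, which this search does not match. Of the promoters not shown, that of Aqp1 held it at −30 and 1 of the 2 listed for Aqp4 at −77, while those of Aqp8, Aqp9 and Aqp11 did not. Of 33469 promoters searched over the same 100 bases, 11.0% held it on either strand. The letters CGTCA, a half-site of the cyclic AMP response element, were searched on both strands as well and were in none of the 4 windows, against 10.2% of all promoters. The letters GATAA of a GATA site, searched in the same way, were in none of the 4 either, against 9.15%. The Aqp2 window holds the similar letters gatag, which this search does not match. A match is a string of letters and was not tested as a site.

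Ratios within a library do not depend on its size factor, so Aqp1, Aqp3 and Aqp4 were each divided by Aqp2. The log2 ratio of Aqp3 to Aqp2 was 1.77, 1.43 and 1.15 in control and 1.58, 1.34 and 1.63 in STZ libraries. Aqp3 thus had more reads than Aqp2 in all 6 libraries, and the groups overlapped. The difference of the means, STZ minus control, was 0.07 (p = 0.7 by a two-sided exact permutation test), and it was −0.082 without control replicate 3.

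The log2 ratio of Aqp4 to Aqp2 was 1.06, 0.20 and 0.83 in control and −0.40, 0.26 and 0.07 in STZ libraries. Control replicate 2 lay among the STZ libraries, so the groups overlapped. The difference was −0.71 (p = 0.2 by the same exact test).

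The log2 ratio of Aqp1 to Aqp2 was −4.59, −5.25 and −4.76 in control and −6.64, −5.96 and −5.96 in STZ libraries. All 3 STZ libraries lay below all 3 control libraries. The difference was −1.32 (p = 0.1 by a two-sided exact permutation test, which can give none smaller), and after adjustment over the 3 ratios the p-values were 0.3 for Aqp1, 0.7 for Aqp3 and 0.3 for Aqp4, so no ratio passed the threshold of 0.05.

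**Figure D3:**
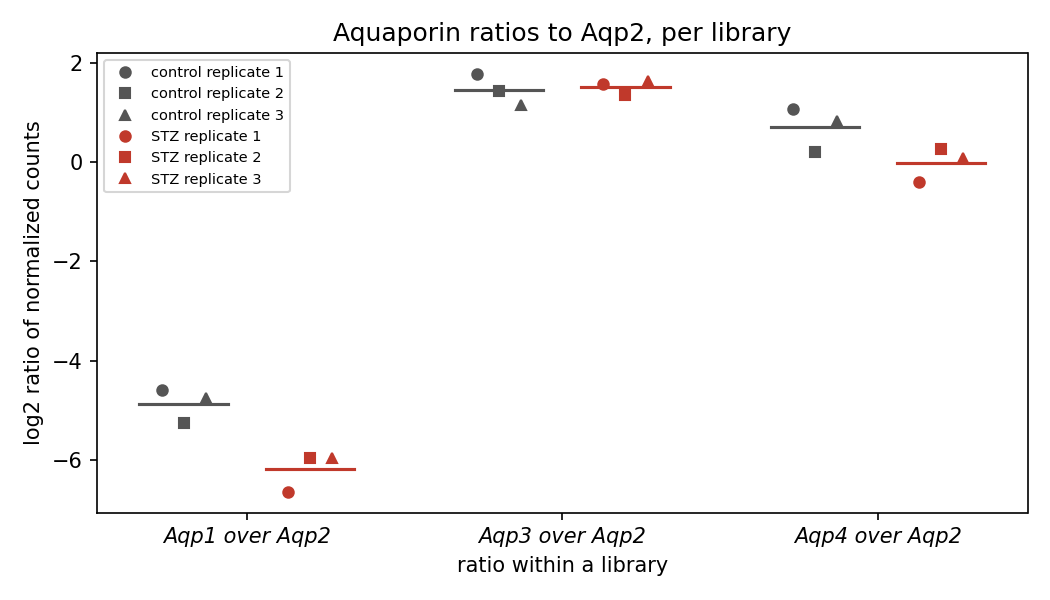
Log2 ratio of Aqp1, Aqp3 and Aqp4 to Aqp2 within each library, 1 point per library with the mean of each group as a bar. Only the ratio of Aqp1 to Aqp2 separates the groups, with control libraries between −5.25 and −4.59 and STZ libraries between −6.64 and −5.96.

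Across the 6 libraries the values of Aqp2 and Aqp3 varied together, with a Pearson r of 0.961 on the log2 scale, given as a description over 6 libraries that share the group difference. Among 8872 single-gene features with a mean of at least 20, the 3 most like Aqp2 were the clathrin adaptor genes Ap2a2 (r = 0.995) and Ap1b1 (r = 0.99) and the galactosyltransferase gene B4galt4 (r = 0.987), and Aqp3 was at place 28. Most like Aqp3 were Anapc2, Cps1 and D3ZJY9_RAT, with r between 0.986 and 0.994. Aqp4 was most like Sat2, Cdc42ep2 and Cdc42, with r between 0.985 and 0.987, and Aqp1 was most like Mterfd2, Commd5 and Dnajb6, with r between 0.992 and 0.995. With so many features and 6 libraries, high values of r are found for many pairs.

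Genes whose products move or anchor AQP2 were read from a list of 28, of which 25 were tested. Limma called 0 of the 25, with 2 at an unadjusted p under 0.05 against 14.7% of all features, edgeR called 0 and DESeq2 called Msn. Their median log2 fold change was 0.04, beside 0.01 over all features tested, and its sign turned by edgeR and DESeq2 and without control replicate 2 (−0.028), control replicate 3 (−0.12) or STZ replicate 1 (−0.043). It was 0.098 without control replicate 1, 0.018 without STZ replicate 2, 0.015 with equal library totals and 0.0021 with a pseudocount of 5. The most abundant, Mal, a lipid raft protein that binds AQP2, had 14814, 14564 and 11323 normalized counts in control and 14879, 10534 and 10054 in STZ libraries (log2 fold change −0.21, adjusted p = 0.817 by limma). The next 4 by mean, Anxa2, Vamp8, Nedd4 and Rab7a, had log2 fold changes between −0.28 and 0.12. Msn, which encodes the actin linker moesin, is named because of its call, after its values were seen, and had a log2 fold change of −0.67 (adjusted p = 0.134 by limma).

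Of 9 genes of vasopressin and cAMP signalling tested, limma, edgeR and DESeq2 called 0, with 3, 2 and 0 at an unadjusted p under 0.05 against 14.7%, 15% and 13.1% of all features, and Avpr2 could not be assigned because its reads are merged with another gene. Their median log2 fold change was −0.23, with 4 positive and 5 negative values, and its sign turned without STZ replicate 1 (0.32), without control replicate 3 (0.047) and at a minimum mean of 20 (0.28). It was −0.026 by edgeR, −0.029 by DESeq2, −0.13 with a pseudocount of 5, and −0.15 with quantile normalization, without control replicate 1 or without STZ replicate 2. Adcy6, an adenylyl cyclase and the most abundant of them, averaged 320 ± 51.6 normalized counts (SD, n = 3) in control libraries and 398 ± 27.7 (SD, n = 3) in STZ libraries. Without overlap, 3 of the 9 genes lay above control and 0 below, beside 20.3% of all features tested in either direction. These were Prkaca, Akap7 and Prkar2b, with log2 fold changes of 0.77, 0.65 and 0.28 (adjusted p = 0.206, 0.266 and 0.577 by limma). Of the 5 negative values, those of Avpr1a and Prkacb were the lowest, at −0.73 and −0.70 (adjusted p = 0.415 and 0.324 by limma). The groups overlapped for both genes. The sum of the list averaged 651 normalized counts in control and 759 in STZ libraries.

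Of 11 transcription factor genes of the collecting duct tested, limma, edgeR and DESeq2 called 0, with 1, 0 and 2 at an unadjusted p under 0.05, beside the same shares of all features. Their median log2 fold change was 0.26 (0.17 without control replicate 3), with 8 positive and 3 negative values. Without overlap, 0 of the 11 lay above control and 2 below, beside 20.3% of all features tested in either direction. The 2 below were Nr3c2 and Tfcp2l1, with log2 fold changes of −0.49 and −2.01 (adjusted p = 0.372 and 0.259 by limma). Tfcp2l1 was low, with means of 11.9 normalized counts in control and 3.33 in STZ libraries. Elf3, an epithelial ETS factor and the most abundant, had 4190 normalized counts in control replicate 1, 3699 in control replicate 2 and 1941 in control replicate 3, against 4406, 3754 and 4848 in STZ libraries. Nfat5, the factor of the response to hypertonicity, had a log2 fold change of 0.19, Ehf −0.46, Gata3 0.26 and Tcfap2b 0.33, with adjusted p-values between 0.386 and 0.844 by limma.

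For glycerol, which AQP3, AQP7 and AQP9 carry, 8 enzyme genes were tested and limma, edgeR and DESeq2 called 0. Against 14.7%, 15% and 13.1% of all features, 0 of the 8 had an unadjusted p under 0.05. Their median log2 fold change was −0.18, and its sign turned without control replicate 2, at 0.17. It was −0.055 at a minimum mean of 20, −0.096 without STZ replicate 2, −0.32 without control replicate 3 and −0.29 without STZ replicate 3. The 5 most abundant, Agk, Pnpla2, Gpd2, Dak and Mgll, had log2 fold changes between −0.69 and 0.09.

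The other marker lists moved as follows, beside 0.927% of all features tested called lower by limma and 1.17% called higher. Of 3 thick ascending limb genes limma called Umod and Egf lower, in each fit with a library left out as well. Slc12a1 did not pass in the main fit (adjusted p = 0.0732 by limma) but did without STZ replicate 1 (adjusted p = 0.00444) and by DESeq2. It also passed by limma at a minimum mean of 20, with no filter and with quantile normalization (adjusted p = 0.0492, 0.00938 and 0.0374). Without the intensity trend Umod and Egf did not pass (adjusted p = 0.084 and 0.0577). The sums of that list were 1099, 1371 and 1886 normalized counts in control and 597, 364 and 210 in STZ libraries. Of 6 urothelial genes it called Upk1b and Upk3a higher, with sums of 113, 90.8 and 142 in control and 441, 529 and 484 in STZ libraries. It called Pdgfra higher among 6 interstitial genes, Tagln higher among 2 smooth muscle genes, and 0 of 7 leukocyte genes. Of the leukocyte genes 0 had an unadjusted p under 0.05 by limma, edgeR and DESeq2, against 14.7%, 15% and 13.1% of all features. With single libraries left out, Upk3a and Tagln passed in each of the 6 fits, while Upk1b and Pdgfra passed only without control replicate 3, with log2 fold changes from 1.03 to 1.45 and from 0.86 to 1.21. Without the intensity trend Upk3a passed, and Tagln, Upk1b and Pdgfra did not (adjusted p = 0.084, 0.169 and 0.179). Upk1b did not pass with equal library totals (adjusted p = 0.0768) or at a minimum mean of 1 (adjusted p = 0.0607) either. For none of the aquaporins was the part of these cells tested.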

How the data were processed

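RNA-seq of the IM tip of 3 control and 3 STZ rats was analysed from the deposited table. The authors aligned reads to rn4 with STAR 2.3.1t, counted uniquely mapped reads per gene and normalized them with DESeq 1.16.0; the deposited signal is the count divided by 1 size factor per library. Whether counting used strand is not given in the sources used here. In each library, dividing by its smallest value above 0 gave whole reads, within 0.001 read, for 100% of the values. The cDNA was amplified by PCR, so the floor of 3 reads covers counting error only.

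The main test was limma 3.58.1 (R 4.3.3) with an intensity trend on log2(normalized count + 1), which understates the change of low genes, for features with a mean of at least 5, and adjusted p-values are by Benjamini-Hochberg. On recovered reads edgeR 4.0.16 (quasi-likelihood, TMM) called 287 features and DESeq2 1.42.0 called 599, against 283 by limma. Also tried were a pseudocount of 0.5 or 5, a minimum mean of 1 or 20, no filter, equal totals, quantile normalization, no trend, robust moderation, the replicate number as a block and each library left out. The methods were tested on simulated data. Tables were made in Python 3.11.15 with scipy 1.17.1, pandas 2.3.3 and numpy 2.4.6, and figures with matplotlib 3.10.9.

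Members, lists and markers were chosen with earlier results of these data known. Genes named are the 10 members, list or marker genes that passed, up to 5 of each list by mean, and the 3 features most correlated with each of Aqp1 to Aqp4. Msn and the motifs were chosen after their values were seen. So were, for their groups not overlapping, Scnn1b, Scnn1g, Hsd11b2, Slc14a1, Cdh5, Tek, Rhbg, Foxi1, Slc4a9, Prkaca, Akap7, Prkar2b, Nr3c2 and Tfcp2l1. Avpr1a and Prkacb were named after their values were seen as well. Of the marker genes not called by limma, Slc12a1, Slc13a3 and Cidec lay below and Upk2 above control without overlap as well. List genes that share a feature with another gene were not assigned, and Rhoa is uncertain since its feature lies on another chromosome than the RefSeq gene. Part of the thin limb marker list is not reported here.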

Additional observations from a re-analysis of the deposited data

How the results depend on the processing

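Of the 7 aquaporins tested, Aqp1, Aqp2, Aqp3, Aqp7, Aqp8 and Aqp11 kept the sign of their log2 fold change under every alternative that gave a value. With DESeq2, 1 aquaporin passed, Aqp2 (log2 fold change 0.86, adjusted p = 0.0281), and so did 1 gene of AQP2 trafficking, Msn, which also passed with equal library totals and with quantile normalization (1 gene each). The cause was not tested. With single libraries left out, the log2 fold change of Aqp4 ran from −0.0090 to 0.32 and the difference of the log2 ratio of Aqp3 to Aqp2 from −0.082 to 0.23, both negative only without control replicate 3; that of Aqp2 ran from 0.56 to 1.04 and that of Aqp3 from 0.56 to 1.19. At a minimum mean of 20, Aqp7, Aqp8 and Aqp11 gave no value. Per kilobase of locus instead of per feature, Aqp2 was at place 2 and Aqp4 at place 3 of the 10 in control rats, and the low Aqp5, Aqp6 and Aqp9 also changed places. Features called numbered between 31 without the intensity trend and 599 with DESeq2, and between 88 and 352 with a library left out.

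Same-numbered control and STZ libraries deviated from their group means with correlations of 0.395, −0.061 and 0.323 over 9315 features. Those of differently numbered libraries ran from −0.472 to 0.220, and the olfactory background rose with the number in both groups. Whether the numbers pair the rats was not tested further, and the fit without a block stayed the main one. With the replicate block limma called 561 features in place of 283 and 0 aquaporins, with an adjusted p of 0.0896 for Aqp2 and 0.114 for Aqp3, and it changed no call among the aquaporins and the 4 gene lists. Of the marker genes it added Rhbg, Slc14a1 and Slc12a1 (adjusted p = 0.0361, 0.0361 and 0.0312) to those called and took none away. The 3 reads taken as the floor limit Aqp5, Aqp6 and Aqp9. Single libraries of Aqp7 and Aqp8 also reached it, with 3 reads of Aqp7 in STZ replicate 2 and 2 reads of Aqp8 in STZ replicate 3.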
